A study of Mus musculus with 4 samples.

Results

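Calcineurin and its NFAT targets were followed through 10 genes in mouse tibialis anterior, a mostly fast-fibred shin muscle, from C57BL/6 mice at postnatal day 21. The genes were chosen by name and cover the catalytic subunits Ppp3ca and Ppp3cb, the regulatory subunit Ppp3r1, the calcineurin regulators Rcan1, Rcan2 and Cabin1, and the transcription factors Nfatc1, Nfatc2, Nfatc3 and Nfatc4. They are 10 of 32868 gene names in the deposited values, each with a single row, and 9 of them were among the 10690 genes tested, those that reached 0.5 RPKM in 2 or more libraries. Nf1 encodes neurofibromin, which turns off Ras. The Nf1-KO group (genotype Nf1flox/flox/Myf5+) carried floxed Nf1 on both chromosomes and the Het group (Nf1flox/+/Myf5+) on 1 of them, so every library came from muscle with at least 1 floxed allele and the Myf5+ label. The labels name no recombinase; as background, Myf5-Cre recombines floxed alleles in myogenic precursors and leaves most other lineages intact. No wild-type group was included. Each group had 2 libraries. The labels do not say whether these were separate animals, so p-values measure only the spread between these libraries, which may be technical.

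Calcineurin is a protein phosphatase switched on by calcium and calmodulin. Its catalytic A subunit is joined to a small calcium-binding B subunit, and the active enzyme removes phosphates from NFATc factors, which then enter the nucleus until kinases send them out again. In skeletal muscle this pathway reads the calcium signals of sustained nerve activity and is known for favouring slow and oxidative fibre genes. RCAN proteins and Cabin1 bind calcineurin and hold it back, and one of the Rcan1 start sites is itself a well-known NFAT target.

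The start regions of 4 transcripts are shown: both starts of Rcan1, the classical NFAT response gene, and the windows with the most NFAT core matches among the members that fell. Windows of 300 bases, from 250 before to 50 after a RefSeq start (build GRCm38.p6), were used for 8 of the 10 genes, with 13 starts in all. Starts on excluded chromosomes were not used, and Ppp3ca and Nfatc1 have no window here. Capitals mark the core of the NFAT site, GGAAA, on either strand (TTTCC when read from the other strand). They are the upstream start of Rcan1 (chr16:92466120-92466419, minus strand), its downstream start (chr16:92400029-92400328, minus strand), the start of Ppp3cb (chr14:20546524-20546823, minus strand) and the upstream start of Nfatc2 (chr2:168601608-168601907, minus strand).
Rcan1 upstream: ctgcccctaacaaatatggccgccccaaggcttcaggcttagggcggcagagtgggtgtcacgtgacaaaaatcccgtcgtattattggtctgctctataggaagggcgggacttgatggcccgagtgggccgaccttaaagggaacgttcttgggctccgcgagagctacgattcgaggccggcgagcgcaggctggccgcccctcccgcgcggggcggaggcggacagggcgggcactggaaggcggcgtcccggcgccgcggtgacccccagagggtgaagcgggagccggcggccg
Rcan1 downstream: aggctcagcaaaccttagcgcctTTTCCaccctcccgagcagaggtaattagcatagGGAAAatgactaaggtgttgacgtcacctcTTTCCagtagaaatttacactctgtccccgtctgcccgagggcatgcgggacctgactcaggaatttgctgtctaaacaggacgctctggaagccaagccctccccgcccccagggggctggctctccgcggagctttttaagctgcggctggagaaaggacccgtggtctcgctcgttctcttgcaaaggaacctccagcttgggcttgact
Ppp3cb: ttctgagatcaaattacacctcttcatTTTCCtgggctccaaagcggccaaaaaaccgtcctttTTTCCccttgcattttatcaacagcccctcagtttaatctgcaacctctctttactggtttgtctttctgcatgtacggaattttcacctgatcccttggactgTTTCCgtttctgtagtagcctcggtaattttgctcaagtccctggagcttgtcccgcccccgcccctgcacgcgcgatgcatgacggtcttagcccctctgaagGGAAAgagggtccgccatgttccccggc
Nfatc2 upstream: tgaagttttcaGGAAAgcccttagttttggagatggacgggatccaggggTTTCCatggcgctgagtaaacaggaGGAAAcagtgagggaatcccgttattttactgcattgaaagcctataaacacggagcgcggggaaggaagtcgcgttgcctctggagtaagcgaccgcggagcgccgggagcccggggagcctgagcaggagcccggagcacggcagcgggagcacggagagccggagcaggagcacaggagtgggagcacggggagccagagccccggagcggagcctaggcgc
The downstream Rcan1 window held 3 matches and the upstream window 0. Ppp3cb had 4 matches and the upstream Nfatc2 window 3. The other windows of genes that fell held fewer, with 0 for Ppp3r1, 1 and 0 for the starts of Nfatc3 and 1 for the second Nfatc2 start. Of the remaining members with windows, Nfatc4 held 3, the starts of Rcan2 held 2, 0 and 0, and Cabin1 held 0. Among these 8 genes, match counts thus did not separate the genes that fell from the others. Of 32851 windows in the table, 61.3% had at least 1 match, 9.42% had 3 or more and 2.65% had 4 or more. The same 13 windows held no MEF2 consensus, which 3.19% of all windows carry. The E-box CANNTG was searched on both strands. Among the 4 windows shown, it was present in 1 copy in the upstream Rcan1 and Ppp3cb windows. Of the windows not shown, those of Ppp3r1, Nfatc4 and the second starts of Rcan2 and Nfatc3 held 1 copy each. The second Nfatc2 start held 2. Of all windows in the table, 72.3% had an E-box. These are letter matches in short windows, and they do not show binding.

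The values were read as RPKM, reads scaled to gene length and library depth, and can be compared between genes. Estimated depth was 36500000 to 58100000 reads in Het and 47000000 to 51000000 in Nf1-KO. The 20 most abundant genes held 52.1% to 55.3% of the summed RPKM. Group differences were tested with limma, a linear model for every gene that shares variance information between genes, on log2(RPKM + 1) after scaling between libraries. P-values were adjusted over all tested genes and called under 0.05, and log2 fold changes are Nf1-KO against Het on that scale, each with its standard error (SE) where given. Nf1 was 1.09 and 1.01 RPKM in Het against 0.89 and 0.85 in Nf1-KO, a log2 fold change of -0.18 with a limma adjusted p of 0.041. That call was lost when any 1 library was left out, with adjusted p from 0.062 to 0.18. With a pseudocount of 0.1 the change was -0.33 (limma adjusted p 0.045), and the authors' deposited table gave -0.38 (adjusted p 0.0026). Defining genes of skeletal muscle were abundant (Acta1 at 12305 to 15930 RPKM). Their sum over 10 genes was 49135 and 49290 RPKM in Het against 39403 and 39105 in Nf1-KO. Of the 10, 9 fell and 1 rose, against 25.4% lower and 24.9% higher over all tested genes. The one that rose was Des, from 1008 and 1004 to 1219 and 1206 RPKM. The list shares genes with the fast fibre list below, among them Myh4, which went from 6767 and 7015 to 3508 and 3428 RPKM. The sum therefore does not separate muscle content from fibre type.

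Calcineurin subunit transcripts were lower in Nf1-KO muscle, as were those of Nfatc2 and Nfatc3, while Rcan2 was higher. Of the 9 genes tested, 5 fell, 1 rose and 3 did not pass a limma adjusted p of 0.05. Over all 10690 genes tested, 25.4% fell and 24.9% rose past the same threshold, 50.3% in all. The median log2 fold change was -0.29 over the 9 genes and 0.00041 over all tested genes. With values as deposited, without scaling between libraries, the same counts of 5 and 1 were found for these genes, although the share of higher genes among all calls moved from 49.5% to 66.6%.

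**Figure D1:**
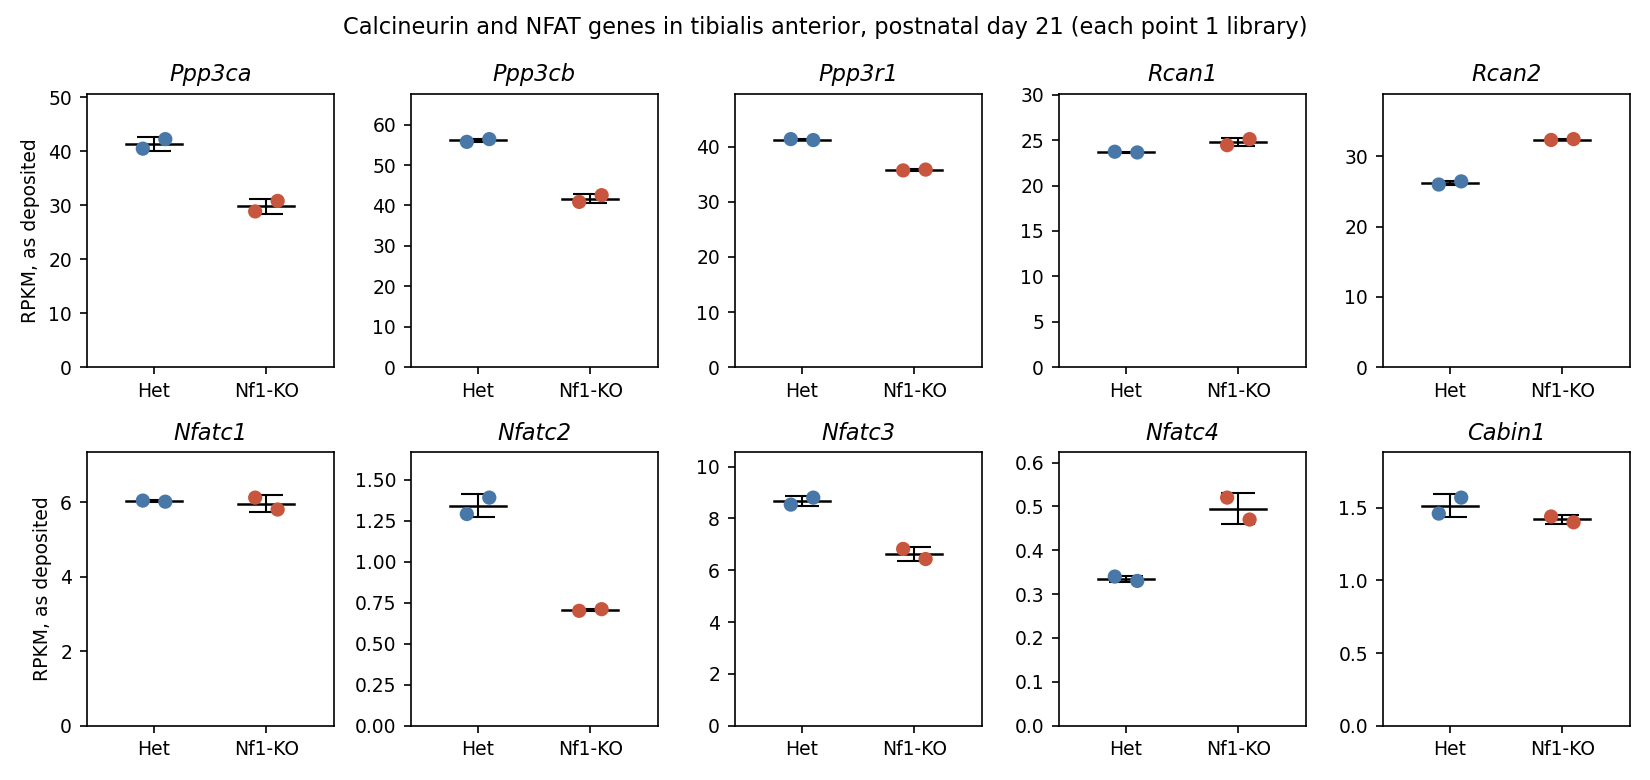
RPKM as deposited in each library for the 10 genes, with 1 panel a gene and the y axis from 0; points are libraries, horizontal lines are group means and bars the SD of 2 libraries. Both Nf1-KO libraries lie below both Het libraries for Ppp3ca, Ppp3cb, Ppp3r1, Nfatc2, Nfatc3 and Cabin1, and above them for Rcan1, Rcan2 and Nfatc4.

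Both ubiquitously expressed catalytic subunits fell by about the same amount. Ppp3ca, the alpha form of the catalytic subunit, was 40.51 and 42.28 RPKM in Het and 28.87 and 30.82 RPKM in Nf1-KO. The groups did not overlap, and the means were 41.4 ± 1.25 and 29.8 ± 1.38 RPKM (SD, n = 2). The mean fell by 27.9%. Its log2 fold change was -0.55 (SE 0.039, limma adjusted p 8.2e-05). Ppp3cb, the beta form, was the most abundant of the 10 genes, at 55.73 and 56.41 RPKM in Het and 40.88 and 42.54 RPKM in Nf1-KO. Here too both Nf1-KO libraries were lower, and the log2 fold change was -0.51 (SE 0.028, limma adjusted p 2.7e-05). In bulk tissue, fewer cells of a type and less RNA per cell cannot be told apart in these values.

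Ppp3r1, the regulatory B subunit that both catalytic forms need, fell less. It was 41.38 and 41.21 RPKM in Het and 35.7 and 35.85 RPKM in Nf1-KO, so the groups were separate and the spread within each was small. Its log2 fold change was -0.29 (95% interval -0.35 to -0.24; limma adjusted p 1.6e-04), against intervals of -0.65 to -0.46 for Ppp3ca and -0.58 to -0.44 for Ppp3cb. In GENCODE M21, 14.3% of the exonic bases of Ppp3r1 also belong to Wdr92 on the same strand, which held 2.08 and 2.09 RPKM in Het and 2.39 and 2.33 RPKM in Nf1-KO. The remaining catalytic gene, Ppp3cc, which is no member and is best known from testis, was listed at 12.17 and 12 RPKM in Het and 12.02 and 12.67 RPKM in Nf1-KO. Its groups overlapped, and its log2 fold change of -0.06 (95% interval -0.15 to 0.032) did not pass, with a limma adjusted p of 0.24.

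The mix of catalytic forms was read from the summed RPKM of Ppp3ca, Ppp3cb and Ppp3cc. That sum was 108 and 111 RPKM in Het and 81.8 and 86.0 RPKM in Nf1-KO. Ppp3cc made up 11.2% and 10.8% of it in Het and 14.7% in both Nf1-KO libraries. Ppp3ca made up 37.4% and 38.2% in Het and 35.3% and 35.8% in Nf1-KO, and Ppp3cb 51.4% and 51.0% against 49.99% and 49.4%. The groups were separate for each form, but an exact two-sided permutation test with 2 libraries against 2 cannot go below p = 0.333, which is the value each share had.

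**Figure D2:**
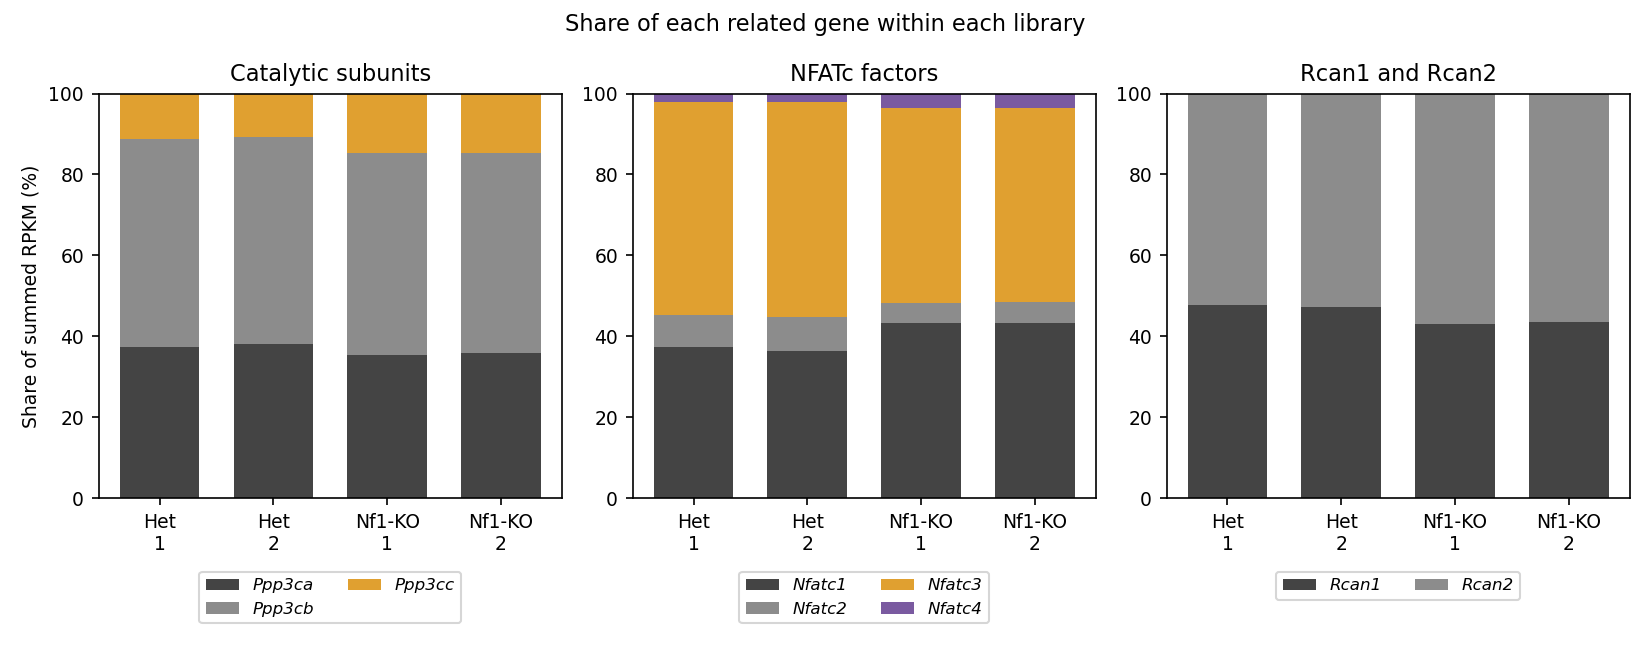
Share in percent of the summed RPKM taken by each catalytic subunit, each NFATc factor and each RCAN gene, with 1 stacked bar a library. Ppp3cc takes on average 11.03% of the catalytic sum in Het and 14.7% in Nf1-KO, Nfatc1 takes 36.9% and 43.3% of the NFATc sum, and Rcan1 takes 47.5% of the RCAN sum in Het and 43.4% in Nf1-KO.

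The RCAN genes, whose proteins bind calcineurin and inhibit it, behaved differently from the subunits. Rcan2 was 25.97 and 26.42 RPKM in Het and 32.31 and 32.43 RPKM in Nf1-KO. The groups were well apart relative to their SD of 0.318 and 0.0849 RPKM, and Rcan2 was the only tested member that rose. Its log2 fold change was 0.20 (SE 0.027, limma adjusted p 0.0012). Rcan1 was 23.72 and 23.64 RPKM in Het and 24.44 and 25.11 RPKM in Nf1-KO. The deposited values were thus slightly higher in both Nf1-KO libraries, but the log2 fold change of the scaled values was -0.03 (95% interval -0.10 to 0.041) and did not pass, with a limma adjusted p of 0.45. Without scaling it was 0.06, with an adjusted p of 0.11, so Rcan1 had no direction that held across scalings. The gene-level value cannot separate its start sites, so the downstream start shown above was not measured on its own. Rcan1 made up 47.7% and 47.2% of the summed RPKM of Rcan1 and Rcan2 in Het and 43.1% and 43.6% in Nf1-KO (exact two-sided permutation p = 0.333, the smallest possible).

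Cabin1, which encodes a large calcineurin-binding inhibitor that also represses MEF2 factors, was low, at 1.46 and 1.57 RPKM in Het and 1.44 and 1.4 RPKM in Nf1-KO. Both Nf1-KO libraries were just below both Het libraries. The difference did not pass (log2 fold change -0.11, 95% interval -0.25 to 0.025, limma adjusted p 0.15).

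**Figure D3:**
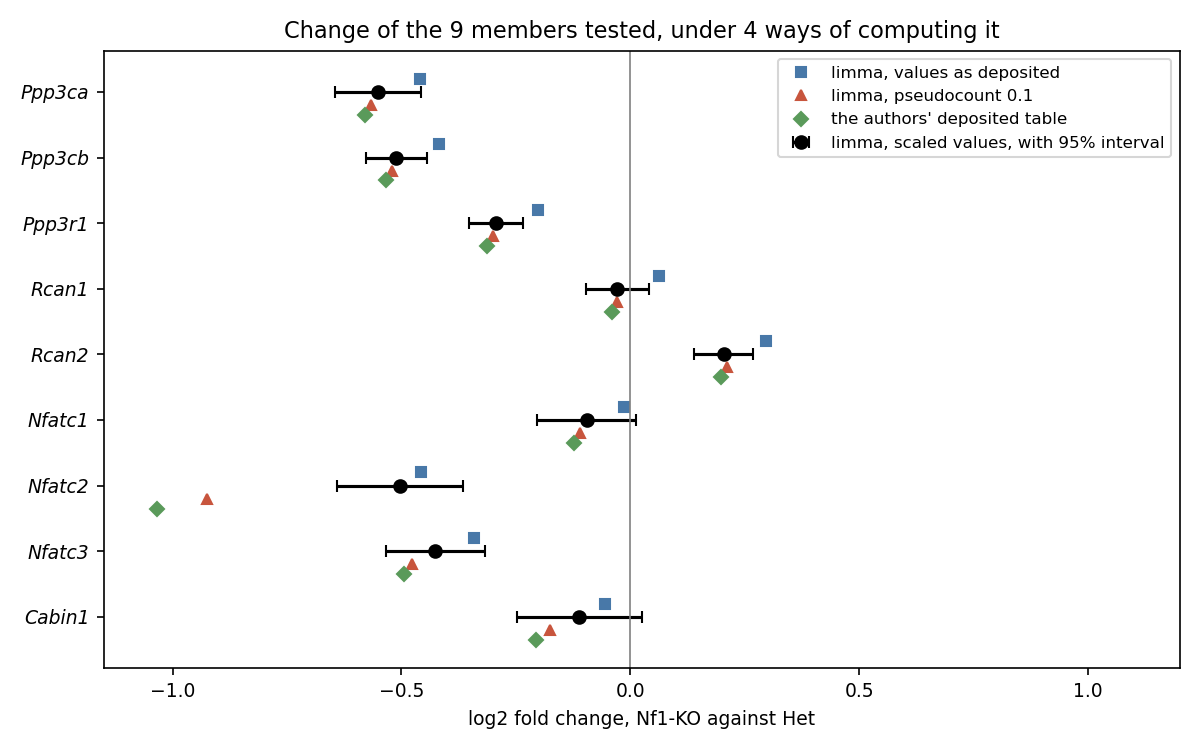
Log2 fold change of Nf1-KO against Het for the 9 tested genes; black points are limma values of scaled log2(RPKM + 1) with 95% intervals, and coloured marks show limma without scaling, limma with a pseudocount of 0.1 and the authors' deposited table. The sign is the same under all 4 for each gene except Rcan1, and Nfatc2 ranges from -1.03 to -0.46.

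Among the NFATc factors, Nfatc3 and Nfatc2 fell while Nfatc1 did not pass. Nfatc3, the most abundant of them in this muscle, was 8.53 and 8.8 RPKM in Het and 6.82 and 6.43 RPKM in Nf1-KO. The groups did not overlap, and the log2 fold change was -0.43 (SE 0.045, limma adjusted p 4.5e-04). An opposite-strand neighbour, Esrp2, shares 1.87% of its exonic bases and was listed at no more than 0.02 RPKM in any library. Nfatc2, known in muscle for its part in the growth of myotubes and in lymphocytes for cytokine genes, was 1.29 and 1.39 RPKM in Het and 0.7 and 0.71 RPKM in Nf1-KO. Its mean fell by 47.4%, the largest relative fall among the 10 genes, and both Nf1-KO libraries were far below both Het libraries.

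The fitted change of Nfatc2 depended on the pseudocount because its level is low. On the log2(RPKM + 1) scale it was -0.50 (SE 0.057; limma adjusted p 6.2e-04), with a pseudocount of 0.1 it was -0.92 (limma adjusted p 7.4e-04), and the authors' deposited table gave -1.03 with an adjusted p of 1.3e-14. Markers of T and B cells, which also express this gene, were at or near 0: none of 11 reached the level for testing, and the highest value in any library was 0.48 RPKM, for Cd2. The summed RPKM of these 11 markers was 0.64 and 0.54 in Het and 0.79 and 0.6 in Nf1-KO. The part of T and B cells in the Nfatc2 values was not tested.

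Nfatc1, the factor most closely tied to slow fibre genes, was 6.05 and 6.02 RPKM in Het and 6.13 and 5.81 RPKM in Nf1-KO. The deposited values of the groups overlapped. Its log2 fold change was -0.09 (95% interval -0.20 to 0.013), with a limma adjusted p of 0.12, and without scaling it was -0.01. Nfatc4 was 0.34 and 0.33 RPKM in Het and 0.52 and 0.47 RPKM in Nf1-KO, below the level for testing, since only 1 library reached 0.5 RPKM. Both Nf1-KO libraries were higher. When no minimum level was asked, its log2 fold change was 0.13 with a limma adjusted p of 0.069, and the authors' deposited table gave 0.45 with an adjusted p of 0.24.

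Within the summed RPKM of the 4 NFATc genes, Nfatc1 took 37.3% and 36.4% in Het and 43.3% in both Nf1-KO libraries. Nfatc3 took 52.6% and 53.2% in Het and 48.1% and 47.9% in Nf1-KO, and remained the largest component in all 4 libraries. Nfatc2 took 7.96% and 8.40% in Het and 4.94% and 5.29% in Nf1-KO, and Nfatc4 no more than 3.67% in any library. Each share separated the groups, with an exact two-sided permutation p of 0.333, the smallest possible. The sum itself was 16.2 and 16.5 RPKM in Het and 14.2 and 13.4 RPKM in Nf1-KO.

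In order of level, the Het libraries held Ppp3cb highest, then Ppp3ca and Ppp3r1, then Rcan2, Rcan1, Nfatc3, Nfatc1, Cabin1, Nfatc2 and Nfatc4. Ppp3ca and Ppp3r1 did not differ beyond their spread there, since the values of Ppp3r1 lay between those of Ppp3ca. In Nf1-KO the order became Ppp3cb, Ppp3r1, Rcan2, Ppp3ca and Rcan1, so that Ppp3r1 and Rcan2 both stood above Ppp3ca, with no overlap of their libraries. The lower part of the order was the same in both groups.

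**Figure D4:**
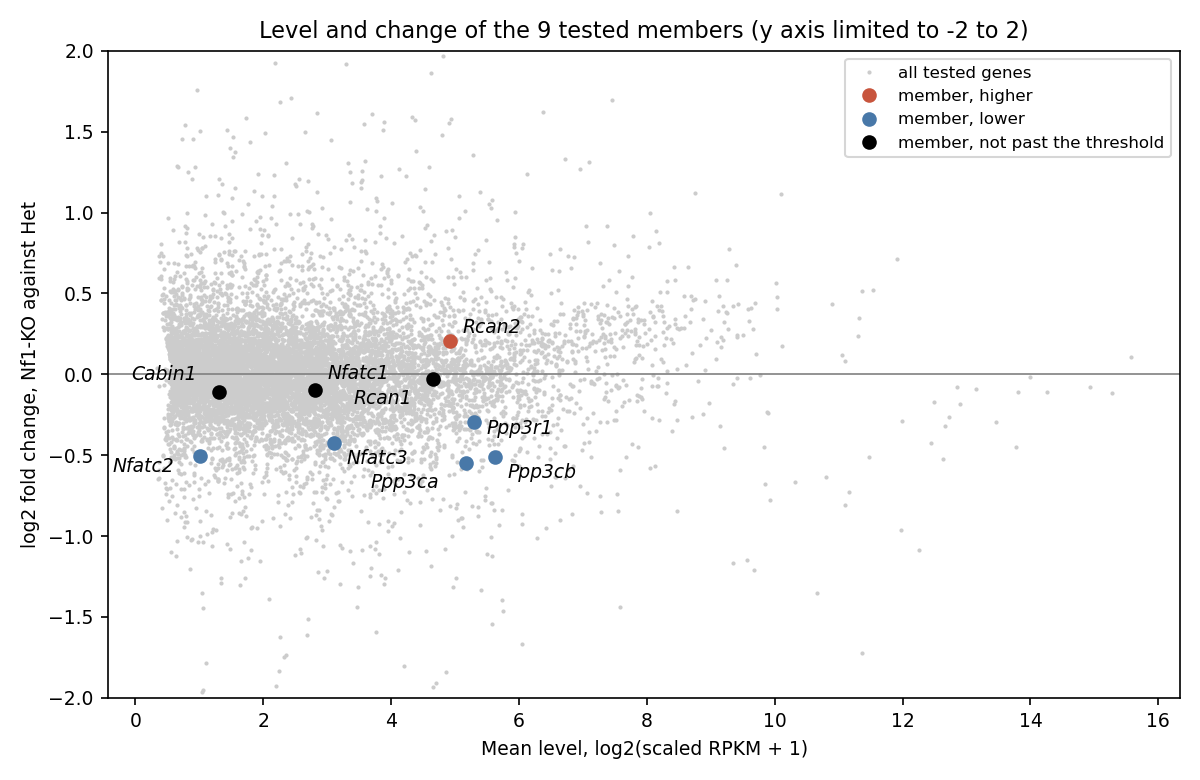
Log2 fold change of Nf1-KO against Het over the mean level, as log2(scaled RPKM + 1), for all tested genes (grey) and the 9 tested members (coloured by call); the y axis is limited to -2 to 2. Ppp3ca and Ppp3cb lie low in the cloud at a high level, and Nfatc2 has a similar change at a low level.

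Set among all tested genes, 3.78% had a log2 fold change at or below that of Ppp3ca, 4.52% at or below that of Ppp3cb, 4.71% at or below that of Nfatc2 and 6.59% at or below that of Nfatc3. For Ppp3r1 the share was 12.4%, and for Rcan2 80.2%. Separation of the groups was common in these data: the deposited values did not overlap in 77.3% of tested genes (27.4% lower, 49.8% higher), and in 8 of the 9 tested members (6 lower, 2 higher). The authors' deposited table called the same 5 genes lower and Rcan2 higher at an adjusted p under 0.05, where 31.6% of its 13985 rows passed. It gives a mean normalized count of 10763 for Ppp3cb, 8329 for Ppp3ca, 515 for Nfatc2 and 104 for Nfatc4, so counting noise weighs more on the last of these.

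Ppp3ca had the largest log2 fold change among the members on the log2(RPKM + 1) scale, although with a pseudocount of 0.1 and in the authors' deposited table Nfatc2 had the larger one (-0.92 and -1.03). The profile of Ppp3ca was most closely matched by Cpeb4 (a regulator of translation), Pde4a (a cyclic AMP phosphodiesterase) and Dusp10 (a MAP kinase phosphatase) among 4819 other genes of at least 5 RPKM. Their distances from it over the 4 libraries, on the centred log2 scale, were 0.012, 0.027 and 0.030. With 4 libraries such likeness is common, and 69 genes lay within 0.1 of Ppp3ca.

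Upstream of calcineurin lies calmodulin, the calcium sensor that activates the phosphatase, and Calm2 and Calm3 are among the genes that encode it. Calm3 was 111.4 and 108.27 RPKM in Het against 73.6 and 70.86 RPKM in Nf1-KO, and fell by 0.69 on the log2 scale. Calm2 passed narrowly, at -0.10 with a limma adjusted p of 0.042, but its deposited values overlapped and the change without scaling was -0.0032. Ppp3r2, another form of the regulatory subunit best known from testis, was listed at 0.

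Calcium entry through the store-operated channel, which refills the reticulum and feeds calcineurin in many cells, was represented by 10 genes, of which 6 were tested. Of these, 2 fell, 1 rose and 3 did not pass. Over all tested genes 50.3% passed in either direction, so this count is near that share. Stim2, a calcium sensor of the endoplasmic reticulum, went from 5.79 and 6.03 to 3.34 and 3.4 RPKM (log2 fold change -0.74), and Orai1, the pore subunit, from 15.95 and 14.7 to 11.13 and 11.52 RPKM (-0.49). Saraf, which turns this entry off, was the most abundant gene of the list and rose from 73.43 and 71.12 to 91.14 and 89.82 RPKM (0.23).

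Kinases that phosphorylate NFATc factors and oppose calcineurin mostly moved the same way as the phosphatase subunits. Of 11 genes, all tested, 7 fell, 1 rose and 3 did not pass, and their median log2 fold change was -0.21. For comparison, 25.4% of all tested genes were lower and 24.9% higher at a limma adjusted p under 0.05. Dyrk2 fell from 13.69 and 12.68 to 8.09 and 9.41 RPKM, a log2 fold change of -0.63 (SE 0.070). Mapk9 and Dyrk1a fell by 0.41 and 0.35 on the log2 scale, and Mapk14, the most abundant of the list, went from 35.03 and 35.48 to 29.86 and 29.83 RPKM. Csnk1e was the only kinase that rose, from 8.96 and 9.31 to 11.34 and 10.87 RPKM (log2 fold change 0.17, limma adjusted p 0.015). That call was lost without Het replicate 1, without Nf1-KO replicate 1 and when no minimum level was asked.

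Genes of a list of other proteins that bind calcineurin, inhibit it or act with it or with NFAT changed in both directions. Of 16 listed genes, 13 were tested, of which 5 fell, 3 rose and 5 did not pass. The share passing over all tested genes was 50.3%, so calls in this list are not set apart by their number. The calsarcins, which tether calcineurin to the Z-disc of the sarcomere, differed among themselves. Myoz2, the calsarcin of slow fibres and heart, rose from 15.26 and 14.93 to 46.39 and 47.32 RPKM, a log2 fold change of 1.48 (SE 0.028, limma adjusted p 5.1e-07). Myoz1, the far more abundant fast-fibre form, fell from 1004 and 993 to 904 and 903 RPKM (log2 fold change -0.24), and Myoz3 fell by 0.30 on the log2 scale.

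Homer1, a scaffold protein reported to promote calcineurin and NFAT signalling in muscle, went from 13.63 and 14.21 to 8.18 and 8.72 RPKM (log2 fold change -0.75). Fhl1, reported as a partner of NFATc1, went from 245.82 and 242.75 to 193.06 and 192.83 RPKM (-0.43). Fbxo32, a ubiquitin ligase reported to target calcineurin in heart muscle, rose by 0.29 and Lmcd1 by 0.19 on the log2 scale. Fkbp1a, which the drug FK506 needs to inhibit calcineurin, was listed at no more than 0.18 RPKM, so a low listed value was not read as absence.

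A list of 17 further genes held other calcineurin substrates, NFAT partner factors and calmodulin-dependent kinases, and 13 were tested. Of these, 6 fell, 1 rose and 6 did not pass, near the 50.3% that passed in either direction over all tested genes. Camk2a, a calmodulin-dependent kinase, fell from 66.92 and 66.82 to 32.43 and 32.05 RPKM, a log2 fold change of -1.12 (SE 0.024, limma adjusted p 7.3e-07). Camk2g fell by 0.48 and Crtc1 by 0.29 on the log2 scale, and the transcription factor Gata2 rose by 0.40. Mef2c, the most abundant of this list, was 88.4 and 91.23 RPKM in Het and 99.24 and 100.79 RPKM in Nf1-KO, a log2 fold change of 0.06 that did not pass (limma adjusted p 0.085). Without Het replicate 2 or Nf1-KO replicate 1, the count of lower genes in this list was 2, and without Nf1-KO replicate 2 it was 3.

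**Figure D5:**
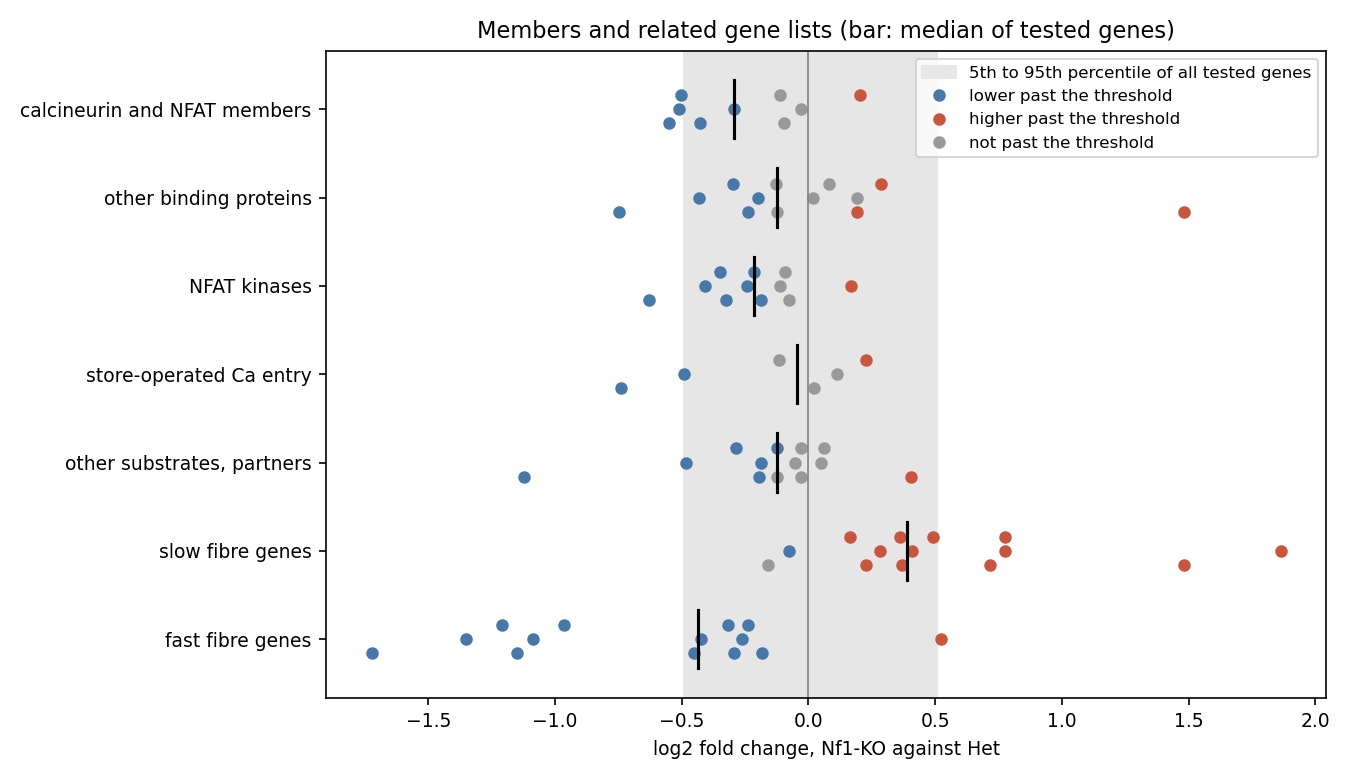
Log2 fold change of Nf1-KO against Het for each tested gene among the calcineurin and NFAT members and 6 related lists; points are genes coloured by call, black bars are list medians and the grey band spans the 5th to 95th percentile of all tested genes. NFAT kinases lie mostly left of 0, slow fibre genes mostly right of it, and Myoz2 stands out among the binding proteins at 1.48.

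Genes of slow and oxidative fibres that are reported to respond to calcineurin moved opposite to the subunits. Of 14 genes, all tested, 12 rose and 1 fell, with a median log2 fold change of 0.39. For this list and the fast fibre list below, the shares over all tested genes were 24.9% higher and 25.4% lower. Casq2 (the calsequestrin of slow fibres and heart), Myoz2 and Tnnt1 (slow troponin T) rose by 1.86, 1.48 and 0.78 on the log2 scale, and the oxygen carrier Mb went from 2933 and 2906 to 5099 and 5135 RPKM. The slow myosin gene Myh7 did not pass, at 1.53 and 1.66 RPKM in Het and 1.47 and 1.36 RPKM in Nf1-KO (limma adjusted p 0.066). The fall of Slc2a4, the insulin-responsive glucose transporter (log2 fold change -0.08, limma adjusted p 0.024) turned to 0.02 without scaling, and the call was lost without Het replicate 1 and without either Nf1-KO library. Of 14 fast fibre genes, 13 fell, with a median of -0.44. Myoz2 of the slow list and Myoz1 of the fast list were also counted among the binding proteins above, so these lists are not separate. Pvalb (the calcium buffer parvalbumin), Actn3 (a Z-disc protein of fast fibres) and Mybpc2 (fast myosin-binding protein C) fell by 1.72, 1.35 and 1.21 on the log2 scale, Tnnt3 was the most abundant at 10575 to 12184 RPKM, and Myh1 was the only one that rose (0.52). The myosin heavy chain genes are close relatives that can share reads, which makes their values uncertain.

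Markers of myeloid cells, Schwann cells and fibroblasts were mostly higher in Nf1-KO, while endothelial markers passed in both directions and satellite cell markers mostly did not pass. The sums are of deposited, unscaled values. The shares over all tested genes were 24.9% higher and 25.4% lower. Myeloid markers summed to 10.02 and 10.1 RPKM in Het and 31.5 and 30.8 RPKM in Nf1-KO, with 4 of 10 listed names tested, all higher. Most of these sums was Lyz2 alone, at 7.47 and 7.38 RPKM in Het and 24.35 and 24.62 RPKM in Nf1-KO. Adgre1 was listed at 0, as was Emr1, an older name of the same gene. Schwann cell markers summed to 15.8 and 16.3 RPKM against 36.5 and 35 RPKM, with 6 of 8 tested, all higher. Fibroblast markers summed to 103 and 99.5 RPKM against 151 and 152 RPKM (6 of 8 higher, 1 lower), and endothelial markers to 111 and 112 RPKM against 124 and 123 RPKM (4 of 9 higher, 2 lower, median log2 fold change 0.00097). The endothelial count of higher genes was 1 without Het replicate 1, Het replicate 2 or Nf1-KO replicate 1, 2 without Nf1-KO replicate 2 and 1 with no filter, and the count of lower genes was 1 in each of these. Satellite cell markers summed to 22.2 and 21.4 RPKM against 25.9 and 24.4 RPKM, with 1 of 5 tested genes higher, 0 without Het replicate 1 or Nf1-KO replicate 1, and 4 without scaling. The part of these cells in the levels of the calcineurin and NFAT genes was not tested.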

How the data were processed

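The authors deposited 1 value per gene for each of 4 libraries, named by library only in the file headers. The authors' deposited values were read as RPKM, normalized to gene length and depth, since they have 2 decimals and sum to between 532146 and 546969 per library. Per the submitters' processing notes, STAR 2.4.2a, DESeq2 and the genome build mm9 were used. The counting program and annotation are not given in the sources used here. The TruSeq v2 kit named in the labels does not mark strand. Per the file headers, the authors' deposited table has the DESeq2 layout, with a mean signal of normalized counts, a log2 fold change, a test score and p-values.

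Rows named by a number (33) were left out and the highest-mean row was kept per name. Libraries were scaled by a trimmed mean of log ratios without weights (30% and 5% trimmed), and log2(RPKM + 1) was tested with limma 3.58.1 (R 4.3.3) with a variance trend, for genes of at least 0.5 RPKM in at least 2 libraries. Fold changes on this scale understate those of low genes. The Benjamini-Hochberg adjustment of two-sided p-values covered all 10690 tested genes, with a threshold of 0.05. Depth was estimated from the steps of low values in genes under 400 bases. Exon overlap was checked for the members and Nf1 only. Starts were taken from RefSeq on GRCm38.p6, another build than the authors'.

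The members and lists were chosen with earlier results of these data known. All members are named; from each other list, the most abundant gene and up to 3 genes with the largest change past the threshold in each direction are named, and all may be named where under 5 were tested. For the member past the threshold with the largest change on the log2(RPKM + 1) scale, the 3 genes of at least 5 RPKM with the closest profile are named. The counts of the list of other subunits and calmodulin are not reported here. Myh7, Fkbp1a, Adgre1 and Cd2 were singled out after their values were seen. Alternatives covered pseudocount, filter, scaling, variance prior, copies, a replicate block and leaving out each library.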

Additional observations from a re-analysis of the deposited data

How the results depend on the processing

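Of 690 values recomputed under 16 alternatives, 641 showed no change of direction or call, or stayed within the spread or within 1.5 times. The others were 1 change of sign, 7 lost calls and 41 that moved further. The 95 values of the 6 called members were all among the 641. Rcan1 turned from -0.03 to 0.063 without scaling. Nf1 lost its call with no filter (-0.19), without scaling (-0.13) and with the replicate block (-0.18); the cause was not tested. It was still called with a pseudocount of 0.1 (-0.33) or 0.5 (-0.24), and in the authors' deposited table (-0.38). With each library left out in turn it ran from -0.21 to -0.15. Without scaling, higher counts became 5 for binding proteins, 2 for store-operated entry and 3 for substrates and partners, and lower counts 3 for substrates and partners and 0 for slow fibre genes. With no filter, where more genes were tested, higher counts became 0 for NFAT kinases, 2 for store-operated entry and 2 for substrates and partners, with 3 of the latter lower. With 1 RPKM in every library, where fewer genes were tested, 2 substrates and partners were higher and 2 slow fibre genes lower. Without the 20 most abundant genes, 6 fast fibre genes were lower, since others of that list had been left out of the test. With each library left out, higher NFAT kinases ran from 0 to 1, lower substrates and partners from 2 to 5, and lower slow fibre genes from 0 to 1.

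Libraries with the same replicate number did not deviate together from their group means (r = -0.018 over genes), so the numbers were not taken as pairs. The replicate block called 5343 genes against 5381. Nfatc2 could not be fitted with 1 RPKM in every library, since it fell below that level. With 2 libraries a group there are 2 residual degrees of freedom, so the calls depend on variance information limma borrows from other genes.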

Other observations

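Relations between the members were also computed after their values were seen. The summed RPKM of Rcan1 and Rcan2 per summed RPKM of the catalytic subunits was 0.458 and 0.452 in Het and 0.694 and 0.669 in Nf1-KO. Ppp3r1 per summed catalytic subunits was 0.382 and 0.372 in Het and 0.437 and 0.417 in Nf1-KO. In each case both Nf1-KO libraries were higher, with an exact two-sided permutation p of 0.333, the smallest that 2 libraries against 2 can give. These are ratios of transcript levels, and protein amounts and phosphatase activity were not measured.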
